A study of Mus musculus with 9 samples.

Results

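Matrix metalloproteinases (MMPs) and their tissue inhibitors (TIMPs) were followed in whole mouse corneas with a mutation in Dstn, the gene for the actin depolymerising factor destrin, with and without a genetic deletion of Srf in the epithelium. The set holds 10 genes of 22180 measured: the gelatinases Mmp2 and Mmp9, the stromelysins Mmp3 and Mmp10, the collagenase Mmp13, macrophage elastase Mmp12, the membrane-type protease Mmp14, and the inhibitors Timp1, Timp2 and Timp3. A gene was taken from the value table where the platform annotation gave its symbol and no other, and each of the 10 genes had 1 such row, called a probe set here. All 10 were measured, and no filter on intensity was applied.

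The WT group was wild type. The mutant group was labelled Dstncorn1 mutant. The rescued group was labelled Dstncorn1 rescued and had the same Dstn mutation together with genetic loss of Srf in the corneal epithelium. Srf encodes serum response factor. What drives the deletion is not stated in the labels, which name no loss of Srf outside the epithelium. Each group had 3 arrays, and each array held RNA from 1 pool of 10 corneas of 5 mice. All mice, controls included, were given doxycycline by intraperitoneal injection from postnatal day 28 to 58 and were 58 days old. Their strain background was mixed, with contributions from FVB, Swiss Black, 129, C57BL6/J and A.BY. As background, doxycycline is also a known inhibitor of MMP enzyme activity, and every group received it.

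MMPs are zinc-dependent proteases that are mostly secreted as inactive proenzymes and, once activated, cut collagens, laminins, proteoglycans and other matrix and cell surface proteins. TIMPs bind the active site of MMPs and block it. In the cornea these enzymes are known for their part in epithelial wound closure, stromal remodelling, ulceration and the ingrowth of vessels, and stromal cells, epithelium and infiltrating leukocytes can all make them. The array measured RNA, so proenzyme, active enzyme and inhibitor protein were not measured.

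Values are log2 intensities as the authors normalised them. The median of all rows was 6.77, and array medians lay between 6.75 and 6.78. Where the lower of a pair of groups had a mean below 6.77, signal above background was not shown and its fold is given as "at least". Arrays of 1 group correlated at Pearson r of 0.990 to 0.993 over all rows, which are not independent replicates. Dstn had a mean log2 intensity of 12.57 in WT, 5.63 in mutant and 5.62 in rescued pools, and Srf had 9.13, 10.68 and 9.01. Srf was lower in rescued than in mutant pools by −1.67 (limma adjusted p = 0.000841), and its rescued minus WT difference was −0.12 (95% interval −0.59 to 0.35, limma adjusted p = 0.787), so the loss in the epithelium rests on the labels. The labelled tissue was borne out by corneal epithelial markers: all 5 measured ones lay above the median of all rows in every group, and Krt12, the cornea-specific keratin gene, had means of 13.53 to 13.95. The sex mix of the pools was uneven. WT replicates 1 and 3 had a mean over 3 Y-linked genes of 5.34 and 5.15, against 7.16 to 9.77 elsewhere, and Xist was 6.12 in mutant replicate 2 and 11.8 to 12.9 elsewhere. With that Y-linked mean as a covariate, the call of Mmp10 between rescued and WT was lost (adjusted p = 0.068) and the other calls of the 10 genes stood.

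Between mutant and WT corneas, 8 of the 10 genes rose and none fell. Calls rest on limma's moderated test (two-sided), with Benjamini-Hochberg adjustment over all 22180 genes and a threshold of 0.05. Of all genes, 15.1% were called higher, 16.5% lower and 31.6% in either direction. The measured log2 differences were 5.02 for Mmp3, 2.44 for Timp1 and 1.70 for Mmp12, all from WT means below the median of all rows, so they are bounds and do not rank the rises. Mmp10 and Timp2 were not called. The median log2 difference was 0.67 over the 10 genes and −0.02 over all genes tested. The 3 mutant pools all lay above the 3 WT pools in 8 of the 10 genes, and the groups did not overlap, in either direction, in 44.7% of all genes.

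Between rescued and mutant corneas, which share the Dstn mutation and differ by label in epithelial Srf, 4 genes fell and 1 rose. Mmp3, Mmp9, Timp1 and Timp3 fell, and Mmp10 rose. Of all genes, 6.88% were called lower, 6.46% higher and 13.3% in either direction. The median log2 difference was −0.34 over the 10 genes and −0.0019 over all genes. The pools did not overlap in 5 of the 10 genes and in 32.2% of all genes. The other 5 genes had intervals that held 0, and whether their differences were smaller than those of the 5 called genes was not tested.

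Between rescued and WT corneas, 6 genes were higher and none was lower. Mmp3, Mmp12, Timp1, Mmp10, Mmp13 and Mmp14 were higher in the rescued pools. Of all genes, 6.28% were called higher, 7.43% lower and 13.7% in either direction. The median log2 difference was 0.52 over the 10 genes and −0.01 over all genes. All rescued pools lay above all WT pools in 8 of the 10 genes, Mmp2 and Timp2 included, and the groups did not overlap in 31.6% of all genes. The calls of Mmp10, Mmp12, Mmp13 and Timp1 were closer to the threshold (limma adjusted p = 0.0112 to 0.0253) than those of Mmp3 (0.000213) and Mmp14 (0.00196). Without WT replicate 2 the calls of Mmp10, Mmp13 and Timp1 were lost, and the count was 3 in place of 6. The 3 comparisons share arrays with each other, so they are not independent.

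**Figure D1:**
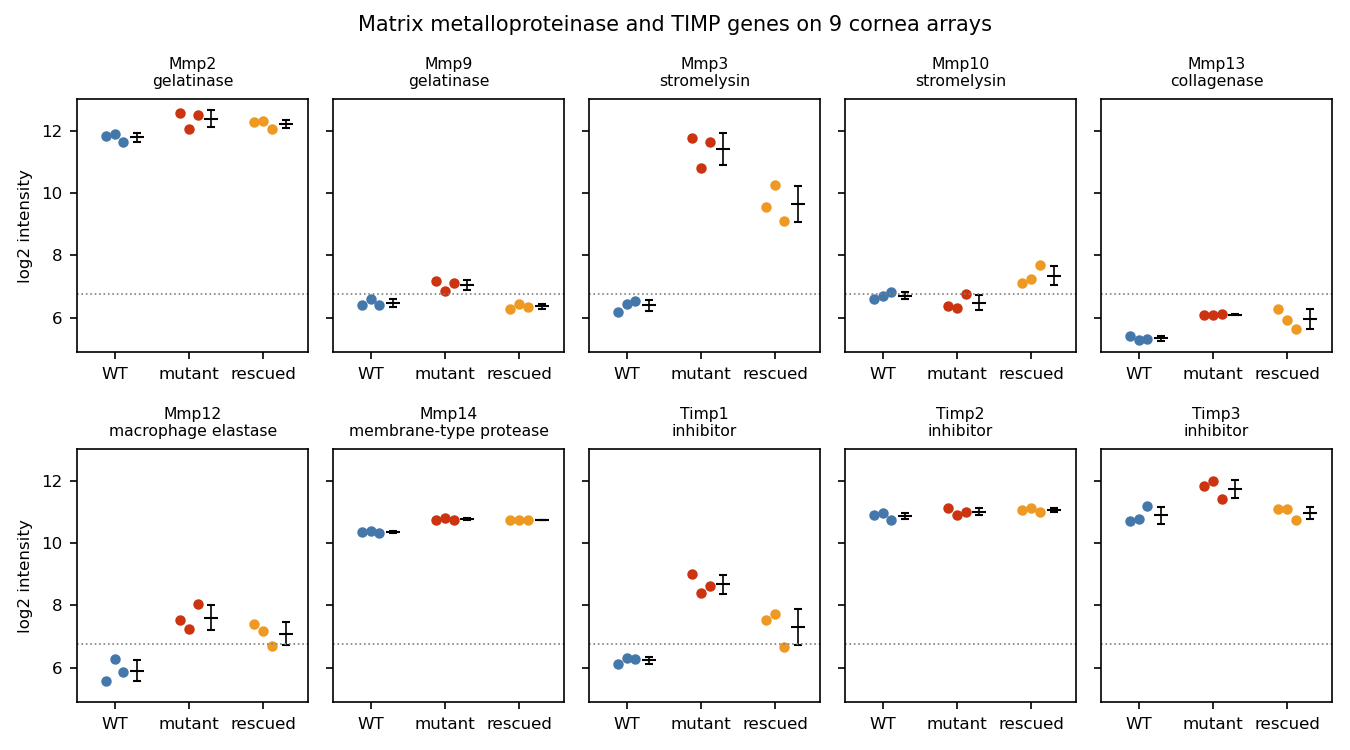
Log2 intensity of each of the 10 genes on 9 arrays, with 1 point per pool (replicates 1 to 3 from left to right in each group), the mean and SD of each group in black and the median of all rows (6.77) as a dotted line. The measured values of Mmp3 span the widest range, from about the dotted line in WT to 11.40 in mutant and 9.65 in rescued pools, and Mmp10 is the gene whose rescued pools lie above both other groups.

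Of the stromelysins, Mmp3 fell and Mmp10 rose from mutant to rescued corneas, and Mmp3 alone of this pair was called between mutant and WT. Both enzymes cut proteoglycans, laminin and type IV collagen and can activate other proenzymes. Mmp3 (stromelysin-1, probe set 17514515) had log2 intensities of 6.18, 6.44 and 6.54 in the WT pools, 11.76, 10.81 and 11.64 in the mutant pools and 9.56, 10.27 and 9.11 in the rescued pools. The 3 groups did not overlap, the rescued pools lay between the others, and the lowest mutant pool was replicate 2. The rise from WT to mutant was 5.02 on the log2 scale (SE 0.30, limma adjusted p = 2.81e-06), or at least 32.4-fold. From mutant to rescued Mmp3 fell by 1.75 (SE 0.30, limma adjusted p = 0.00492), which is 3.37-fold. Rescued pools stayed 3.26 above WT (SE 0.30, limma adjusted p = 0.000213), or at least 9.60-fold.

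Mmp10 (stromelysin-2, probe set 17514541) had log2 intensities of 6.61, 6.68 and 6.84 in the WT pools, 6.37, 6.32 and 6.74 in the mutant pools and 7.11, 7.24 and 7.68 in the rescued pools. All 3 rescued pools were above all 6 others, and the mutant and WT pools overlapped. The difference from WT to mutant was −0.23 (95% interval −0.58 to 0.12, limma adjusted p = 0.322). Mmp10 rose by 0.87 from mutant to rescued pools (SE 0.16, limma adjusted p = 0.00605), at least 1.83-fold, and was 0.64 higher in rescued than in WT pools (limma adjusted p = 0.0253). The last call was lost without rescued replicate 2 (adjusted p = 0.0551), WT replicate 1 (0.0845) or WT replicate 2 (0.0741).

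Mmp13 and Mmp12, a collagenase and an elastase, rose in mutant corneas and had no called difference between rescued and mutant ones. Mmp13 (collagenase-3, which cuts fibrillar collagen, probe set 17514482) had log2 intensities of 5.42, 5.27 and 5.30 in the WT pools, 6.08, 6.07 and 6.10 in the mutant pools and 6.27, 5.93 and 5.64 in the rescued pools. Every pool lay below the median of all rows, the mutant and rescued pools overlapped, and both groups lay above WT. The log2 difference was 0.76 between mutant and WT (SE 0.13, limma adjusted p = 0.00168), and no fold is given since both means lay under the row median. It was −0.14 between rescued and mutant (95% interval −0.44 to 0.16) and 0.62 between rescued and WT (limma adjusted p = 0.0138; 0.0506 without WT replicate 2).

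Mmp12 (macrophage elastase, which cuts elastin and is made mainly by macrophages, probe set 17514495) had log2 intensities of 5.58, 6.26 and 5.84 in the WT pools, 7.54, 7.23 and 8.03 in the mutant pools and 7.40, 7.17 and 6.70 in the rescued pools. Mutant and rescued pools overlapped, and all 6 were above the 3 WT pools. The rise from WT to mutant was 1.70 (SE 0.24, limma adjusted p = 0.000518), at least 3.26-fold. Rescued pools differed from mutant pools by −0.51 (95% interval −1.06 to 0.04, limma adjusted p = 0.223). They were 1.20 above WT (limma adjusted p = 0.0112), at least 2.29-fold. That call against WT was lost in a test without moderation (unmoderated test, adjusted p = 0.0611).

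Most macrophage markers were higher in both comparisons in which Mmp12 was called higher. In mutant corneas 11 of 12 macrophage and monocyte markers exceeded WT and 1, Itgam, was lower, with the tissue macrophage gene Adgre1 at least 2.67-fold higher. The sum of their intensities was 3212 to 3327 in WT, 4812 to 6304 in mutant and 5150 to 6052 in rescued pools. Without Itgam, the brightest of them, it was 1892 to 2089, 4373 to 5595 and 3509 to 4451. Of the 12 marker means, 7 in WT, 1 in mutant and 2 in rescued lay below the median of all rows. Between rescued and mutant 1 marker, Itgam, was higher and 1, Cd14, was lower, beside 6.46% and 6.88% of all genes. Between rescued and WT 9 of 12 were higher. The share of all genes called higher was 15.1% between mutant and WT and 6.28% between rescued and WT. Between mutant and WT 16.5% were called lower. Itgam, whose product is used as a macrophage and neutrophil marker, had means of 10.33 (WT), 9.20 (mutant) and 10.59 (rescued). The part of macrophage number in the Mmp12 result was not tested. In pools of whole tissue, more cells of a type and more RNA per cell cannot be told apart.

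Mmp3, Mmp10, Mmp12 and Mmp13 belong to a run of 10 Mmp genes on chromosome 9 (order from RefSeq genes on GRCm38.p6). In order the run reads Mmp13, Mmp12, Mmp1b, Mmp3, Mmp1a, Mmp10, Mmp8, Mmp27, Mmp20 and Mmp7. Between mutant and WT 3 of the 10 were called, all higher and all among the 4 genes followed here. The share called among all genes was 31.6%, so the count of 3 is near that share. Between rescued and mutant Mmp3 was called lower and Mmp10 higher, and between rescued and WT all 4 were called higher. The shares of all genes called in these comparisons were 13.3% and 13.7%. The other 6, which include the neutrophil collagenase gene Mmp8 and the matrilysin gene Mmp7, had no call in any comparison. Their group means lay between 3.46 and 6.15, below the median of all rows, and their mutant minus WT differences between −0.24 and 0.33. Mmp3 and Mmp10 lie on either side of Mmp1a, and their mutant minus WT differences were 5.02 and −0.23 on the log2 scale.

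**Figure D2:**
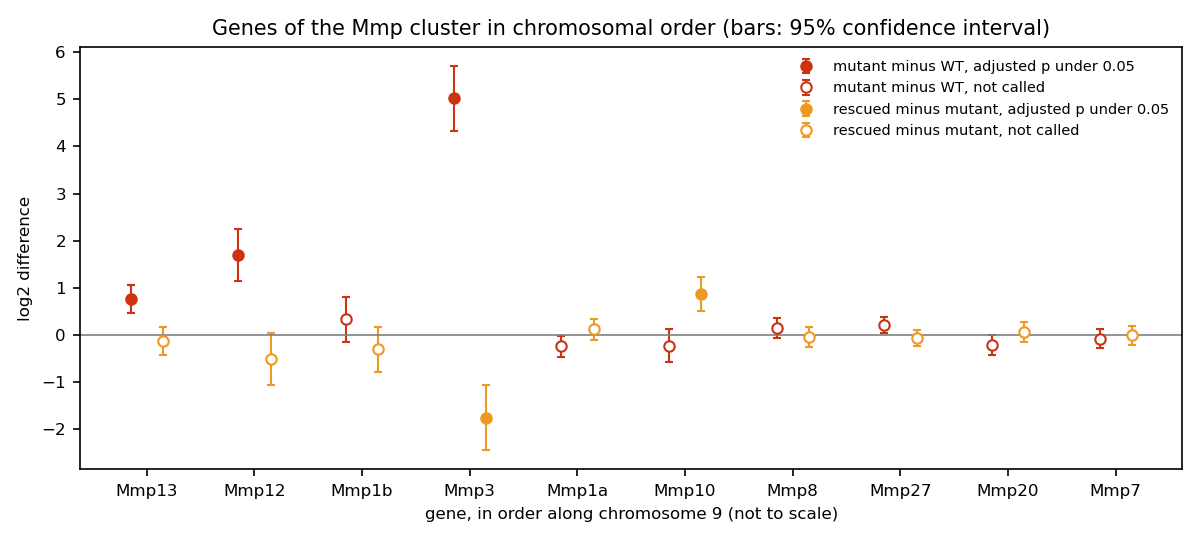
Log2 difference of each gene of the chromosome 9 run in chromosomal order (spacing not to scale), for mutant minus WT (red) and rescued minus mutant (orange), with 95% intervals and filled points for an adjusted p under 0.05. Mmp3 stands at 5.02 and −1.75, of these 2 comparisons Mmp10 is called in rescued minus mutant (0.87), and the 4 genes from Mmp8 to Mmp7, as well as Mmp1b and Mmp1a, have open points.

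The promoters of these 4 genes are shown because each has a listed start with the same motif, described below. The part of that motif in their RNA values was not tested. RefSeq promoters (250 bases before to 50 after the start, GRCm38.p6) were listed for 8 of the 10 genes, by symbol, with 9 starts in all since Mmp12 has 2. Motifs were searched on both strands, except the TATA box, which was searched on the gene's strand. AP-1, the site of Fos and Jun dimers, was read as TGANTCA and found in 4 of the 9 promoters and in 7.81% of 32851 promoters of the same length. Those 4 were the promoters of Mmp3, Mmp10 and Mmp13 and of the second listed start of Mmp12, with the motif starting at −46, −63, −35 and −44. The letters TATAAA stood in 4 of the 9 and in 8.32% of all promoters, on the same 4 starts. They began at −7 for Mmp3, −29 for Mmp10 and −16 for Mmp13. For the second start of Mmp12 they began at 5, after the start and outside the bases shown. The ETS core AGGAAG was in 6 of the 9 and in 35.4% of all, and the CArG box, the site of SRF, in 0 of the 9 and in 1.63% of all. The 120 bases before each start follow, 5′ to 3′ on the plus strand, with AP-1 and TATA motifs in capitals.
Mmp3 (chr9:7445702-7445821): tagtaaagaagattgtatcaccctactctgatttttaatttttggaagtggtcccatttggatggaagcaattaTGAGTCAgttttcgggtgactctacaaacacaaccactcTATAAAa
Mmp10 (chr9:7502222-7502341): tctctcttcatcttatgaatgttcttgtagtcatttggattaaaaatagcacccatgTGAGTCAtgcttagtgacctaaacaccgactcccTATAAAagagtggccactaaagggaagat
Mmp13 (chr9:7272394-7272513): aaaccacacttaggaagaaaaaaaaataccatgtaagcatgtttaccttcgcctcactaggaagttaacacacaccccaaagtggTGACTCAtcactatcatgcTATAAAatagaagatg
Mmp12, second start (chr9:7347254-7347373): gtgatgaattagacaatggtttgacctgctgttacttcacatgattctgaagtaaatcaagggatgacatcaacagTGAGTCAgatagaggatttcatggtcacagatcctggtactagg
Mmp3, Mmp10 and the second start of Mmp12 carry the letters TGAGTCA before the start. Mmp13 carries TGACTCA, which is the same site read on the other strand. A match is a description of these letters and not of binding. The first listed start of Mmp12 and the promoters of Mmp14, Timp1, Timp2 and Timp3 held neither the AP-1 nor the TATA letters.

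The gelatinases Mmp2 and Mmp9 both rose in mutant corneas, by 0.59 and 0.58 on the log2 scale, and of this pair only Mmp9 was called lower in rescued than in mutant ones. Both cut denatured collagen and type IV collagen of basement membranes. Mmp2 (gelatinase A, the gelatinase of stromal cells, probe set 17503825) had log2 intensities of 11.81, 11.91 and 11.64 in the WT pools, 12.56, 12.07 and 12.52 in the mutant pools and 12.29, 12.30 and 12.06 in the rescued pools. All mutant and rescued pools lay above the WT pools, and mutant and rescued pools overlapped. The rise from WT to mutant was 0.59 (SE 0.14, limma adjusted p = 0.00759), or 1.51-fold. The rescued minus mutant difference was −0.16 (95% interval −0.47 to 0.14, limma adjusted p = 0.509). The rescued minus WT difference was 0.43 (95% interval 0.13 to 0.73), with a limma adjusted p = 0.0659, and it was called without mutant replicate 2 (0.0189).

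Mmp9 (gelatinase B, made by migrating epithelium and by neutrophils, probe set 17379606) had log2 intensities of 6.40, 6.60 and 6.40 in the WT pools, 7.18, 6.86 and 7.11 in the mutant pools and 6.29, 6.42 and 6.35 in the rescued pools. The mutant pools lay above all others, and rescued and WT pools overlapped. Mmp9 rose by 0.58 from WT to mutant (SE 0.10, limma adjusted p = 0.00114), at least 1.498-fold. It fell by 0.70 from mutant to rescued (SE 0.10, limma adjusted p = 0.00137), at least 1.62-fold. The rescued minus WT difference was −0.11 (95% interval −0.33 to 0.10, limma adjusted p = 0.518). A rescued mean below the median of all rows leaves the level of Mmp9 over background there unshown.

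Some neutrophil markers, but not most, moved in the comparisons in which Mmp9 was called. Of 12 markers, 5 were higher and none was lower in mutant than in WT, and the same 5 (S100a8, S100a9, Cxcr2, Csf3r and Ltf) were lower in rescued than in mutant corneas. Among all genes 15.1% were called higher in mutant than in WT, and 6.88% lower in rescued than in mutant. The other 7, Ly6g, Mpo, Camp and Ngp among them, were called in neither comparison. Between rescued and WT, where Mmp9 was not called, 2 of the 12, Csf3r and Ltf, were higher, beside 6.28% of all genes. S100a9, a calprotectin subunit gene, rose at least 3.97-fold from WT to mutant and was at least 2.94-fold lower in rescued corneas. The sum of the 12 intensities was 840 to 933 in WT, 1964 to 2779 in mutant and 1428 to 1760 in rescued pools, of which Ltf made up 27.3% to 31%, 52.7% to 58.2% and 50.6% to 58.3%. Below the median of all rows lay 11 of the 12 in WT, 8 of 12 in the mutant and 9 of 12 in the rescued group. Epithelium also expresses S100a8, S100a9 and Ltf. The part of neutrophils in the Mmp9 result was not tested.

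Mmp14 (MT1-MMP, a membrane protease that cuts fibrillar collagen and activates proMMP2 together with TIMP2, probe set 17300279) had the smallest called difference between mutant and WT and, from the fit, the smallest SE of the 10 genes. Its log2 intensities were 10.36, 10.39 and 10.33 in the WT pools, 10.74, 10.80 and 10.75 in the mutant pools and 10.75, 10.74 and 10.73 in the rescued pools. Mutant and rescued pools overlapped at a level above all WT pools. The log2 difference was 0.40 between mutant and WT (SE 0.05, limma adjusted p = 0.000323), which is 1.32-fold. It was −0.03 between rescued and mutant (95% interval −0.15 to 0.09) and 0.38 between rescued and WT (limma adjusted p = 0.00196), 1.30-fold. 

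**Figure D3:**
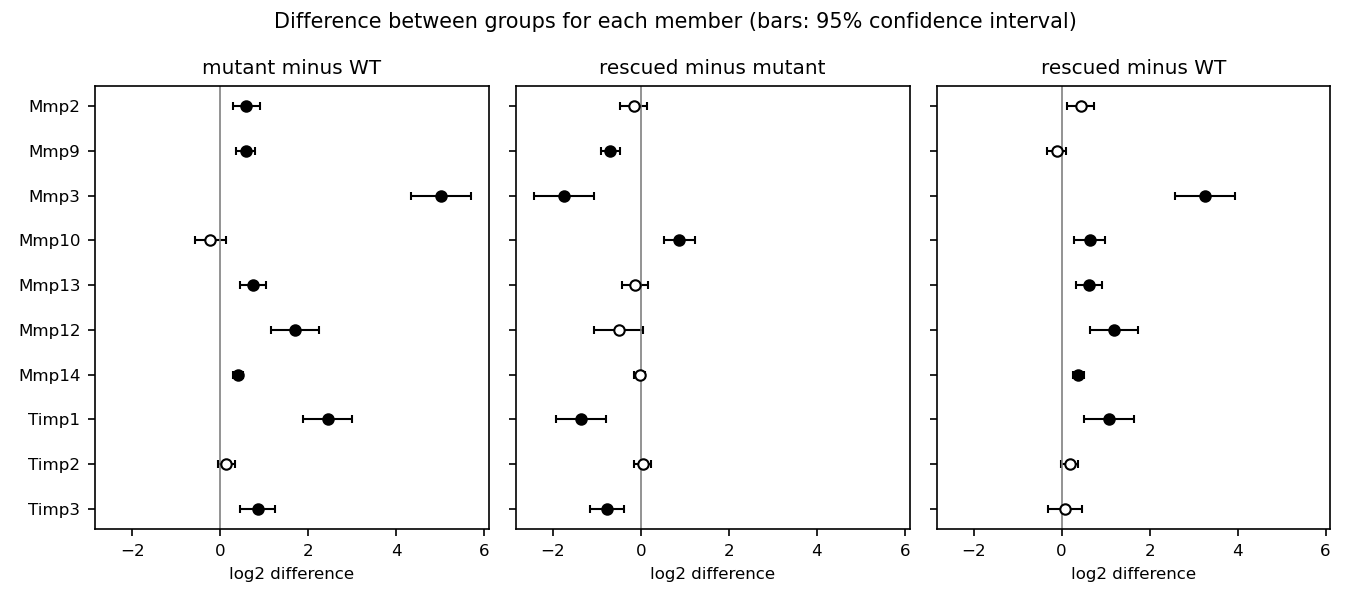
Log2 difference of each of the 10 genes in the 3 comparisons, with 95% confidence intervals (unadjusted) and filled points for an adjusted p under 0.05. In the middle panel Mmp3, Mmp9, Timp1 and Timp3 lie left of 0 and Mmp10 right of it, while Mmp2, Mmp12, Mmp13, Mmp14 and Timp2 have open points.

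Of the inhibitors, Timp1 and Timp3 rose in mutant corneas and fell in rescued ones, and Timp2 was not called in any comparison. Timp1 (an inducible secreted inhibitor that binds proMMP9, probe set 17533713) had log2 intensities of 6.10, 6.29 and 6.28 in the WT pools, 9.003, 8.38 and 8.62 in the mutant pools and 7.51, 7.73 and 6.66 in the rescued pools. The 3 groups did not overlap, and rescued replicate 3 lay closest to WT. Timp1 rose by 2.44 from WT to mutant (SE 0.25, limma adjusted p = 6.3e-05), at least 5.43-fold. It fell by 1.37 from mutant to rescued (SE 0.25, limma adjusted p = 0.00658), 2.58-fold. Rescued pools were 1.07 above WT (SE 0.25, limma adjusted p = 0.0206), at least 2.11-fold. That last call was lost when rescued replicate 1 (0.0754), rescued replicate 2 (0.0752), WT replicate 1 (0.0706), WT replicate 2 (0.0525) or WT replicate 3 (0.0525) was left out.

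Timp3 (an inhibitor bound to the matrix that also blocks ADAM17 and signalling through VEGF receptor 2, probe set 17236182) had log2 intensities of 10.69, 10.78 and 11.19 in the WT pools, 11.83, 11.98 and 11.41 in the mutant pools and 11.09, 11.08 and 10.73 in the rescued pools. The mutant pools lay above all others, with replicate 3 the lowest of them, and rescued and WT pools overlapped. Timp3 rose by 0.85 from WT to mutant (SE 0.18, limma adjusted p = 0.00431), 1.80-fold. It fell by 0.78 from mutant to rescued (SE 0.18, limma adjusted p = 0.0177), 1.71-fold. That fall was no longer called without mutant replicate 1 (0.0656), mutant replicate 2 (0.0545) or rescued replicate 3 (0.0678). Between rescued and WT the difference was 0.08 (95% interval −0.32 to 0.47, limma adjusted p = 0.838).

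Timp2 (a constitutive inhibitor that forms the complex of proMMP2 and MMP14, probe set 17272770) had log2 intensities of 10.90, 10.96 and 10.75 in the WT pools, 11.13, 10.88 and 11.01 in the mutant pools and 11.05, 11.11 and 10.99 in the rescued pools. Mutant pools overlapped with both other groups, and the rescued pools lay above the WT pools. The log2 difference was 0.14 between mutant and WT (95% interval −0.048 to 0.33, limma adjusted p = 0.255). It was 0.04 between rescued and mutant (95% interval −0.15 to 0.23) and 0.18 between rescued and WT (95% interval −0.0064 to 0.37, limma adjusted p = 0.202).

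Whether protease and inhibitor RNAs changed by unequal amounts was tested within arrays, as the difference between both log2 values on each array. Each of 4 protease and inhibitor pairs and the pair of stromelysins were taken through the 3 comparisons, 15 tests in all. In 8 of the 15 a group mean lay below the median of all rows, so that the size of the change was a bound, and no pair difference is given for them. With 3 pools a group, the exact permutation test (two-sided) cannot give a p below 0.1. After Benjamini-Hochberg adjustment over these 15, the smallest adjusted p of this test was 0.125. From WT to mutant, Mmp2 changed by 0.45 more than Timp2 on the log2 scale and Mmp14 by 0.26 more than Timp2, without overlap of the groups (exact p = 0.1 for each).

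From mutant to rescued, the fall of Mmp3 and that of Timp1 differed by −0.39, with overlap of the groups (exact p = 0.3). Mmp2 against Timp2 gave −0.20 (exact p = 0.3) and Mmp14 against Timp2 −0.07 (exact p = 0.6), both with overlap. Between rescued and WT the values were 0.25 for Mmp2 against Timp2 and 0.19 for Mmp14 against Timp2, each without overlap (exact p = 0.1).

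Across the 9 arrays the pattern of Mmp3 was most like that of the desmosomal cadherin gene Dsg3 (Pearson r 0.9967), the kinase gene Mark4 (0.9956), Slc35f6 (0.9942), Arhgef10l (0.9935) and Adm, the adrenomedullin gene (0.9926), out of 17279 genes with plain symbols. The measure compares shape and not size: group means in WT, mutant and rescued were 12.08, 12.89 and 12.61 for Dsg3 and 6.70, 12.19 and 10.41 for Adm. For Timp1 the closest were Clic4 (0.9892), Rnd3 (0.9889), Macir (0.9887), the stress-induced transcription factor gene Atf3 (0.9876) and Cd14, a lipopolysaccharide co-receptor gene (0.9873). The points fall into 3 groups and share arrays, so these values describe the group means more than the pools.

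Of the other MMP genes, 2 of 15 measured were higher and 2 lower in mutant than in WT, beside 15.1% and 16.5% of all genes. The 10 genes above were chosen with earlier results known, so their counts are not set against these. Mmp19, an MMP of vessels and inflamed epithelium, was 1.72-fold higher (limma adjusted p = 0.000697), and Mmp25, the membrane-type MMP of leukocytes, at least 1.54-fold higher (limma adjusted p = 0.000902). Mmp28 (epilysin, expressed by keratinocytes) was 1.53-fold lower (log2 difference −0.62, limma adjusted p = 9.5e-05) and Mmp16, a membrane-type MMP, lower by −0.34. Both Mmp16 means, 6.31 in mutant and 6.65 in WT, lay below the median of all rows, as did those of several others of the 15. In rescued corneas only Mmp28 of the 15 was called against the mutant, 1.27-fold higher, while 13.3% of all genes were called. The median log2 difference of the 15 was 0.12 between mutant and WT and −0.04 between rescued and mutant.

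Of 6 other protease inhibitors, 1 was higher and 1 lower in mutant than in WT, beside 15.1% and 16.5% of all genes. A2m, the gene for the general protease trap alpha-2-macroglobulin, was 1.38-fold lower in mutant than in WT (log2 means 12.89 and 13.35, limma adjusted p = 0.000844) and 1.23-fold higher in rescued than in mutant corneas. Rarres1 rose 2.30-fold from WT to mutant (limma adjusted p = 0.0184). Timp4, the TIMP of heart and fat tissue, had group means of 5.61 to 5.79 and was not called, and Reck, a membrane-anchored MMP inhibitor, had means of 8.15 to 8.22 and was not called.

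Among 13 measured genes of proenzyme activation and the plasmin system, inhibitors included, 5 were higher and 1 was lower in mutant than in WT. The shares over all genes were 15.1% and 16.5%. Plaur, the urokinase receptor gene, rose at least 15.2-fold (limma adjusted p = 1.46e-06) and Plau, the gene for urokinase, which turns plasminogen into plasmin, 3.19-fold (limma adjusted p = 2.53e-06). Serpinb2, an inhibitor of urokinase, rose at least 2.96-fold (limma adjusted p = 0.0289). On the log2 scale Furin, the proprotein convertase that activates MMP14, was 0.66 higher, and Pcsk6, another convertase gene, was lower by −1.21. From mutant to rescued Plaur fell by 2.00 and Plau by 0.80, Pcsk6 rose by 0.86, and the 10 others were not called. That comparison called 13.3% of all genes. Rescued corneas had Plaur at least 3.80-fold and Plau 1.84-fold above WT.

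Of 13 ADAM and ADAMTS protease genes, 6 were higher and 1 was lower in mutant than in WT, beside 15.1% and 16.5% of all genes. In rescued against mutant corneas 6 were lower and none higher, beside 6.88% and 6.46% of all genes. Adam8, a metalloprotease gene of leukocytes and activated cells, rose at least 12.6-fold from WT to mutant (limma adjusted p = 5.11e-06) and was 2.86-fold lower in rescued corneas. Adam9 was 1.89-fold and Adamts9, whose product cuts versican, 1.85-fold higher in the mutant. Adamts5, an aggrecanase gene, was 1.61-fold lower in rescued than in mutant corneas (limma adjusted p = 0.0168).

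Of 25 measured genes for MMP substrates of stroma and basement membrane, 8 were higher and 5 lower in mutant than in WT. The shares over all genes were 15.1% and 16.5%, and the median log2 difference of the 25 was 0.08. Tnc, the tenascin C gene, rose at least 12.6-fold, Col3a1, a fibrillar collagen gene of wounded stroma, 3.22-fold, and Lamb3, a laminin chain gene of the epithelial basement membrane, 2.14-fold. Nid1, the nidogen-1 gene, and Col17a1, a hemidesmosome collagen gene, were lower by −0.81 and −0.49 on the log2 scale. Between rescued and mutant 6 were lower, among them Col3a1 (−0.58) and Col18a1 (−0.52), and 2 were higher, beside 6.88% and 6.46% of all genes.

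Of 21 genes for cytokines that can induce MMPs, their receptors and 1 antagonist (Il1rn), 11 were higher, Il1rn included, and 4 lower in mutant than in WT, with a median of 0.34. Il1b rose at least 6.68-fold (limma adjusted p = 0.000539), the receptor gene Il1r1 3.06-fold and Il1rn, whose product blocks that receptor, 2.78-fold. From mutant to rescued Il1rn fell by 0.76 on the log2 scale (limma adjusted p = 0.00178), and Hbegf, an EGF receptor ligand gene, rose by 0.32. Of 15 genes for AP-1, ETS and related factors, 9 were higher and 4 lower in mutant than in WT. For both lists the shares over all genes were 15.1% higher and 16.5% lower. On the log2 scale Atf3 rose by 2.57, Jun by 2.14 and Ets2 by 1.09, and Fos was lower by −0.63. From mutant to rescued Atf3 fell by 1.26 and Jun by 0.97, and Jun remained 1.18 above WT in rescued corneas. In that step 4 genes of the list of factors were lower and 2 higher, beside 6.88% and 6.46% of all genes.

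**Figure D4:**
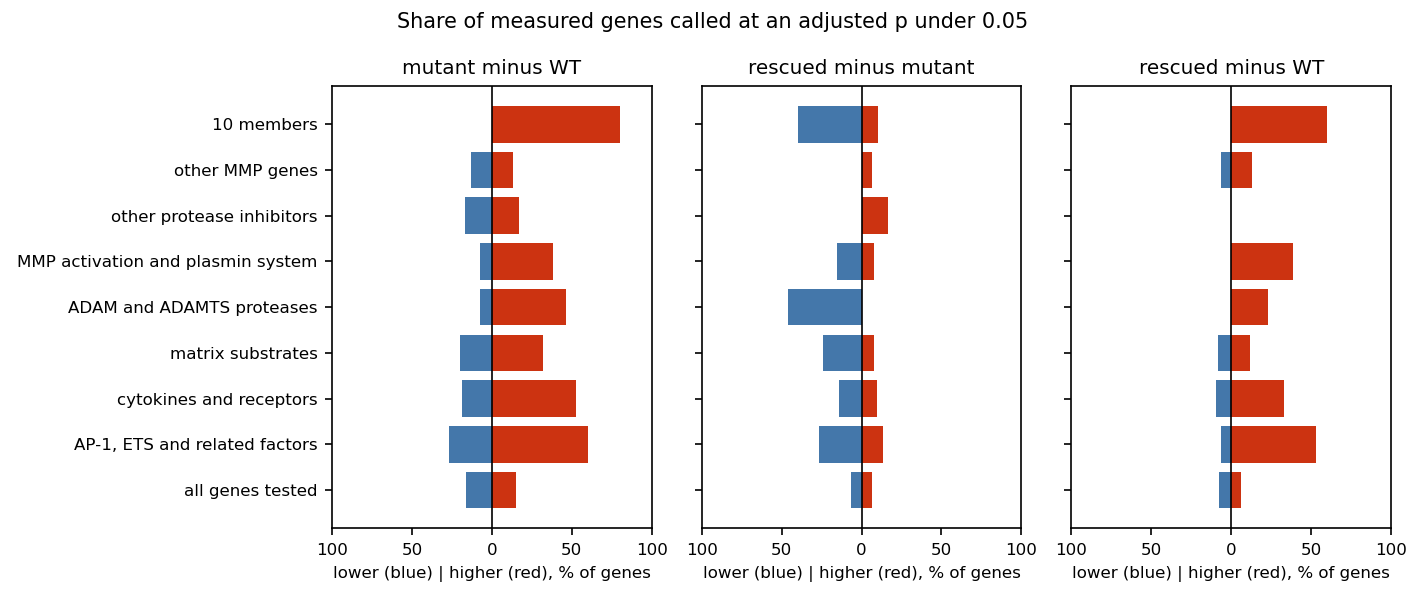
Share of measured genes of each list called higher (red, right) or lower (blue, left) at an adjusted p under 0.05 in the 3 comparisons, in percent, with all 22180 genes as the bottom bar. The bar of the 10 genes shows 8, 1 and 6 genes higher and 0, 4 and 0 lower. The list of other MMP genes shows 2, 1 and 2 higher and 2, 0 and 1 lower. The 10 genes were chosen with earlier results known, and the difference between these bars was not tested.

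Markers of stroma and vessels also differed between the groups, and their part in the MMP and TIMP results was not tested. Among all genes 15.1% were called higher and 16.5% lower between mutant and WT, and 6.46% and 6.88% between rescued and mutant. Of 10 blood endothelial markers, 9 were higher and 1, Kdr, lower in mutant than in WT, and 5 were lower in rescued than in mutant. Their summed intensities were 1332 to 1374 in WT, 2832 to 4156 in mutant and 2106 to 2711 in rescued pools. Of these 10 marker means, 6 in WT, 0 in mutant and 1 in rescued lay below the median of all rows. Among 8 smooth muscle and pericyte markers, mutant corneas had 5 above and 1 below WT, and rescued corneas had 4 below the mutant, with sums of 3038 to 3557 in WT, 18736 to 21062 in mutant and 10008 to 14012 in rescued pools. Acta2 alone made up 71.4% to 76.2% of the mutant sum, the sums without it were 2647 to 2988, 4456 to 6031 and 3268 to 4011, and the median difference of the 8 between mutant and WT was 0.53. Of 8 fibroblast markers, 3 were higher in mutant than in WT and 2 lower in rescued than in mutant, and their sums overlapped, at 7454 to 8879 in WT, 6481 to 10084 in mutant and 7254 to 8251 in rescued pools. Of 8 keratocyte markers, 1 was higher and 4 were lower in the mutant, with sums of 31836 to 38110 in WT, 26417 to 31347 in mutant and 30279 to 33579 in rescued pools. Of the 5 corneal epithelial markers, 3 were lower and Krt14 was higher in mutant than in WT, and the reverse held for the same 4 between rescued and mutant, with sums of 41845 to 42627 in WT, 38612 to 40441 in mutant and 45353 to 46521 in rescued pools.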

How the data were processed

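RNA of 9 pools of whole mouse cornea was hybridised to single-colour Affymetrix arrays after amplification and biotin labelling, per the labels' protocols. The authors deposited 1 table of normalised log2 intensities. How it was normalised is not stated in the labels, and the log base was taken from the values, which span 2.14 to 14.3. Of 41345 rows, 23521 had exactly 1 gene symbol; the row with the highest mean stood for a gene, which left 22180 genes. Comparisons were fitted over all 9 arrays with limma 3.58.1 in R 4.3.3 (lmFit, eBayes, Benjamini-Hochberg over all genes), and the code was tested on simulated data. SEs are moderated; intervals are 95% and unadjusted. The number of arrays limits the precision.

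The members, lists and rules were chosen with earlier results of these data known. Named besides the members were Dstn, Srf, up to 3 genes a list with the largest called change between mutant and WT (2 for rescued and mutant), and the 5 genes most alike to Mmp3 and Timp1. Mmp16, Furin, Pcsk6, Fos, Nid1, Col17a1, Timp4, Reck, the cluster genes and the named cell markers were chosen after their values were seen. Some genes stand in more than 1 list, and 3 of 18 listed transcription factors and 2 of 27 substrates had no row of their own. Alternatives were other scalings, filters, moderation, array weights, subsets, a replicate block, an unmoderated test, a stricter threshold, leaving out each array and, chosen after seeing the data, a Y-linked covariate. Plots were made in Python 3.11.15 with matplotlib 3.10.9.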

Additional observations from a re-analysis of the deposited data

How the results depend on the processing

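The counts of 8, 5 and 6 called genes (mutant and WT, rescued and mutant, rescued and WT) were the same after quantile normalisation, centring of array medians, averaging rows, trend and robust moderation, and array weights. With the unmoderated test they were 8, 4 and 2 (29.6%, 10.9% and 10.4% of all genes called). At an adjusted p under 0.01 they were also 8, 4 and 2 (21.7%, 6.4% and 6.19%). In both, the call of Timp3 between rescued and mutant was lost. The calls of Mmp10, Mmp12, Mmp13 and Timp1 between rescued and WT were lost in both as well. With genes left out whose mean over all arrays lay below the median of all rows, 6, 4 and 6 of 8 genes were called. Mmp9 and Mmp13 gave no value. Of the 12696 genes kept, 53.1%, 30.2% and 28.7% were called. Mmp3, Timp1 and Mmp12 were kept although their WT means (6.39, 6.23 and 5.90) lay below that median. The filter used the mutant and rescued arrays too and so favours genes that are high there. It is therefore no independent check of the calls against WT. With the 6 arrays of a comparison alone the counts were 8, 5 and 7, and with the Y-linked covariate 8, 5 and 5. Leaving out each array gave 8 to 8, 4 to 5 and 3 to 7; the 3 came without WT replicate 2 and the 7 without mutant replicate 2. The share of all genes called then ranged from 26.7% to 31.3%, 8.15% to 12.6% and 8.17% to 13.4%. Replicate numbers do not pair the arrays (same-number deviations correlated at −0.02 to 0.06, different numbers at −0.10 to 0.08), and with the replicate block the counts were 8, 5 and 6. Among values of single genes under the alternatives, 565 kept direction and side of the threshold, 23 lost a call and 3 gained one; the causes were not tested. Another 3, none of them called, changed sign as 1 array was left out. Timp2 between rescued and mutant ranged from −0.020 (without mutant replicate 2) to 0.10, Mmp13 between rescued and mutant from −0.30 to 0.016 (without rescued replicate 3), and Timp3 between rescued and WT from −0.020 (without WT replicate 1) to 0.23. Averaging rows could not change the 10 genes, which have 1 row each, and for the same reason other rows of a gene gave no value.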

Other observations

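Mast cell proteases can activate proMMPs, and their genes were measured beside the MMPs. Of 7 mast cell markers, 5 were higher and 1, Kit, which other cells also express, was lower in mutant than in WT corneas. The shares over all genes were 15.1% and 16.5%. The mast cell chymase gene Mcpt4 had means of 3.61 (WT), 7.42 (mutant) and 5.53 (rescued), and Cpa3, the carboxypeptidase gene of mast cells, 5.83, 9.21 and 7.79. Both were called in all 3 comparisons. Of the 7 markers, 1 was higher and 2 were lower in rescued than in mutant, beside 6.46% and 6.88% of all genes. Between rescued and WT 2 were higher and 1 was lower, beside 6.28% and 7.43%. The Mcpt4 means in WT and rescued lay below the median of all rows. Of the 7 marker means, 6 in WT, 3 in mutant and 5 in rescued lay below it. The summed intensity of the list was 2206 to 2391 in WT, 1529 to 2406 in mutant and 1584 to 1892 in rescued pools. Kit made up 89.6% to 90.3% of the WT sum, and without it the sums were 216 to 237, 586 to 1579 and 390 to 560.

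Of 7 T and NK cell markers, 3 were higher in mutant than in WT, and none was called between rescued and mutant. Their sums were 342 to 353 in WT, 520 to 735 in mutant and 429 to 607 in rescued pools. All 7 means in WT, 4 in mutant and 4 in rescued lay below the median of all rows. Of 6 conjunctival and goblet cell markers, 5 were higher in the mutant and none was called between rescued and mutant, with sums of 4804 to 6341 in WT, 15088 to 16797 in mutant and 9008 to 14779 in rescued pools. All 5 measured corneal endothelial markers were lower in mutant than in WT, with sums of 9593 to 9881 in WT, 6634 to 7498 in mutant and 8310 to 8694 in rescued pools. Of 8 lens markers, 4 were lower in mutant and 4 in rescued than in WT, with sums of 7152 to 10255 in WT, 2359 to 5640 in mutant and 2101 to 2785 in rescued pools. For these 4 lists, the shares over all genes were 15.1% higher and 16.5% lower in mutant than in WT. Between rescued and WT 7.43% of all genes were lower, and between rescued and mutant 13.3% were called.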
